A study of Oryza sativa with 8 samples.

Results

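The loci described here are the rice loci whose array probe gave a signal well above background on every root array at 0.005 mM ammonium and on no root array at 1 mM ammonium. A probe qualified if it had a rice locus name, carried no outlier flag on any array, met that detection pattern, and had a mean log2 signal at least 2 higher at 0.005 mM. A locus counted once if any of its probes qualified. Of 29593 loci with a usable probe, 101 met the rule, or 0.341%. The members were thus chosen by the same contrast that their values describe, so their levels and differences are given without a test.

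RNA came from whole roots of Oryza sativa cultivar Koshihikari after 10 days in a solution with 0.005 mM or 1 mM ammonium chloride. The labels give 4 biological replicates at 0.005 mM and 4 at 1 mM. Each RNA sample was hybridised, labelled with Cy3, to 1 one-colour Agilent array built on rice gene models. No genotype differs between the groups, and whole roots mix all of the organ's cell types.

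Rice grown in flooded soil takes up much of its nitrogen as ammonium, through ammonium transporters in the root plasma membrane, and joins it to glutamate with glutamine synthetase and glutamate synthase. Roots short of nitrogen are known to raise high-affinity uptake systems and to change the expression of many other genes. A spot is called well above background by the scanner software when its signal exceeds the local background by a set margin, so the call marks the limit of measurement of that probe and not the absence of a transcript. In bulk roots, fewer cells of a type and less RNA per cell cannot be told apart.

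On each array, 81.4% to 85.1% of the non-control spots were well above background, and none was saturated. The 4 arrays at 0.005 mM were on 1 slide and the 4 at 1 mM on another, so an effect of the slide cannot be told apart from that of ammonium. Levels are log2 of the processed signal minus the array's 75th percentile, and differences are 0.005 mM minus 1 mM. Over all 35839 probes tested with limma, the median difference was 0.07. At an adjusted p of 0.05, 15449 probes (43.1%) were higher and 12111 (33.8%) were lower at 0.005 mM. Higher probes made up 56.1% of the calls on this scale, 74.1% without scaling and 79.2% when arrays were scaled to the spike-in controls, because those scalings moved the median difference to 0.34 and 0.45. The array files name loci but not gene products, and no table used here links these identifiers to a product or a sequence, so members are named by locus identifier.

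The members were dim spots even where they were detected. Their mean log2 level at 0.005 mM ran between -7.20 and -2.16, with a median of -6.06. The median over all 34649 probes well above background on the 4 arrays at 0.005 mM was -1.34. Of the 101 members, 82 lay in the lowest 10% of those probes by signal and only 2 lay above the lowest 25%. Signal depends on the probe as well as on the transcript, so this describes the spots and not transcript abundance. At 1 mM the mean log2 level of the members ran between -10.13 and -7.97, with a median of -9.19. In processed signal before scaling, the median member averaged 62.5 units at 0.005 mM and 6.08 units at 1 mM.

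**Figure D1:**
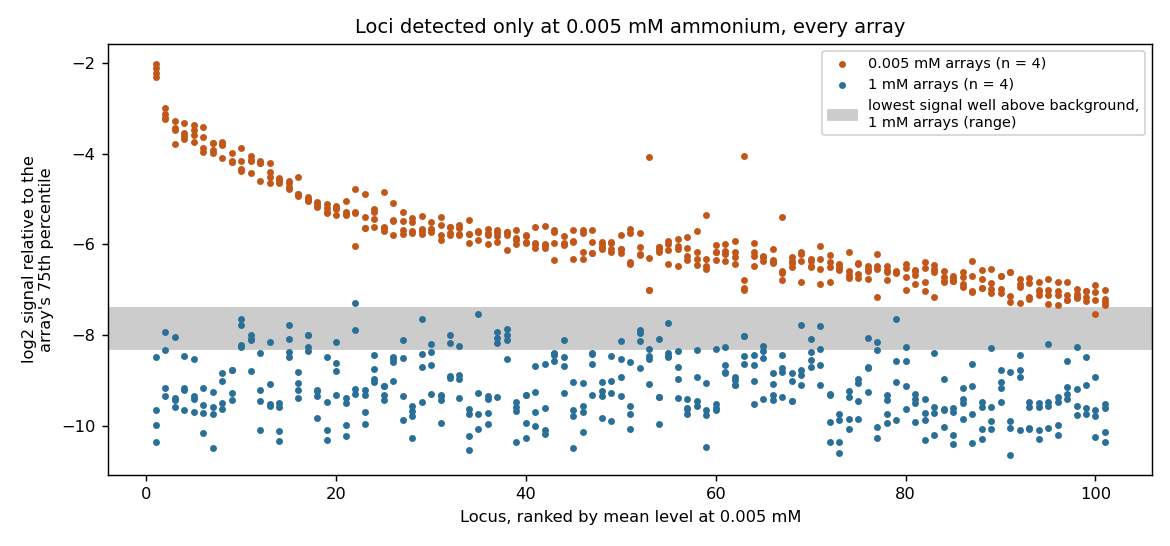
Log2 signal relative to the array's 75th percentile (vertical axis) of the 101 loci, ranked by mean level at 0.005 mM (horizontal axis), with 1 point per array at 0.005 mM (orange, n = 4) and at 1 mM (blue, n = 4). The grey band spans the lowest signals well above background on the 4 arrays at 1 mM, between -8.30 and -7.41. Most orange points lie a little above the band, and nearly all blue points scatter in or under it, with 1 point of Os05g0162800 above it at -7.30. A blue point inside the band can lie above the lowest called signal of its own array.

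The arrays at 0.005 mM and at 1 mM did not overlap for any of the 101 members, against 40.8% of all tested probes that were higher at 0.005 mM without overlap. The rule leaves little room for overlap, so this count adds nothing to it. The 1 mM values were not all equally low. A weaker call of the same software, positive and significant against background, was met on none of the 4 arrays at 1 mM by 12 members, on 1 by 16, on 2 by 22, on 3 by 23 and on all 4 by 28. Of the 404 member values at 1 mM, 241 met this weaker call. By this weaker call, 28 members were thus detected on every array at 1 mM as well.

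Because a probe that is not well above background has only an upper bound, the fold is given here as a lower bound. Each member's mean at 0.005 mM was set against the mean at 1 mM of, per array, the higher of the probe's own signal and the lowest signal well above background on that array. That lowest signal is taken over all probes, and a single probe can stay uncalled above it. At Os05g0162800 the third array at 1 mM gave -7.30 without the call, where the lowest called signal was -7.41. This was not the only case. On the first array at 1 mM the lowest called signal was -8.30, and several members stayed uncalled above it. Among them were Os07g0167500 at -7.93 and Os04g0400500 at -8.04. On the fourth array at 1 mM, Os01g0686200 stayed uncalled at -7.64, against a lowest called signal of -8.02. The bound also leaves out replicate error. It is thus an estimate and not a guaranteed minimum, and "at least" is used for folds in that sense. The bound ran from a log2 difference of 0.63 to one of 5.66, or at least 1.55-fold to at least 50.6-fold higher at 0.005 mM. Its median was 1.73, or at least 3.32-fold. The measured differences, which take the sub-threshold signals at face value, ran from 2.004 to 7.44 with a median of 3.07. By the lower bound, 88 members differed by at least 1 on the log2 scale, 36 by at least 2, 16 by at least 3 and 6 by at least 4. For 13 members the bound was under 1.

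**Figure D2:**
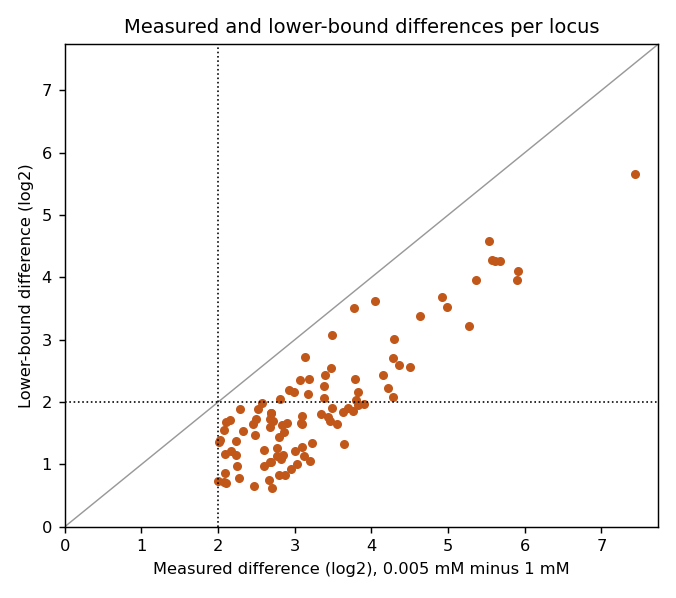
Lower-bound log2 difference (vertical axis) against measured log2 difference (horizontal axis), 0.005 mM minus 1 mM, with 1 point per member locus; the grey line marks equality and the dotted lines mark 2 on each axis. All 101 points lie to the right of the vertical line by the rule, and 36 reach the horizontal one.

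Os01g0700500 stood apart from the other members. Its processed signal was 1034, 899, 894 and 799.6 on the 4 arrays at 0.005 mM, against 2.78, 4.25, 8.995 and 3.21 on the 4 arrays at 1 mM. On the log2 scale this was -2.16 ± 0.13 at 0.005 mM and -9.61 ± 0.81 at 1 mM (SD, n = 4 each), a measured difference of 7.44 and a bound of at least 50.6-fold. The 4 arrays at 0.005 mM were close together, and those at 1 mM were spread more widely. A second probe of the locus, for transcript Os01t0700500-02, had an outlier flag on 1 array and did not count towards the rule. It was well above background on 4 of 4 arrays at 0.005 mM and 1 of 4 at 1 mM, and its unflagged values averaged -3.44 at 0.005 mM and -9.41 at 1 mM.

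Os07g0167500 had the next highest bound, at least 23.9-fold. Its processed signal was 449, 441, 482 and 451 at 0.005 mM, against 14.9, 5.93, 4.94 and 10.0 at 1 mM. The lowest array at 0.005 mM was far above the highest at 1 mM. Os02g0569000 had 416, 341, 299.5 and 339 at 0.005 mM, against 10.4, 5.87, 3.99 and 5.44 at 1 mM, a bound of at least 19.4-fold. Os01g0700500 and Os07g0167500 were the 2 members whose spots at 0.005 mM ranked above the lowest 25%.

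Os01g0704000 had 346, 310.3, 345 and 382 units at 0.005 mM, against 4.38, 4.98, 4.995 and 8.78 at 1 mM, a bound of at least 19.3-fold. Os04g0400500 had 433, 376, 356 and 286 units at 0.005 mM, against 13.8, 4.95, 4.79 and 4.19 at 1 mM, a bound of at least 19.2-fold. For Os04g0400500 the first array at 1 mM gave the highest of the 4 values, and its spot was still not called well above background. Os05g0576700 had 391, 337, 245 and 268 units at 0.005 mM, against 4.31, 5.90, 4.34 and 2.84 at 1 mM, a bound of at least 17.1-fold. These 6 loci were the members with a lower-bound log2 difference of at least 4.

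Os02g0504000 averaged -3.86 ± 0.11 at 0.005 mM and -9.76 ± 0.52 at 1 mM, and Os09g0524300 averaged -3.86 ± 0.16 at 0.005 mM and -9.23 ± 0.39 at 1 mM (SD, n = 4 each). Both had a bound of at least 15.6-fold. Os02g0184700 averaged -4.14 ± 0.10 at 0.005 mM and -9.06 ± 0.35 at 1 mM, a bound of at least 12.9-fold. Os03g0228200 averaged -4.20 ± 0.16 at 0.005 mM and -8.24 ± 0.37 at 1 mM, a bound of at least 12.4-fold. Os03g0228200 differed from the other 9 in that its 1 mM signals met the weaker call on all 4 arrays. The 10 members with the highest bound and the 10 brightest at 0.005 mM shared 9 loci, and the tenth of the brightest was Os01g0686200, at -4.19 ± 0.23 at 0.005 mM and -7.97 ± 0.31 at 1 mM, with the highest 1 mM mean of all members.

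**Figure D3:**
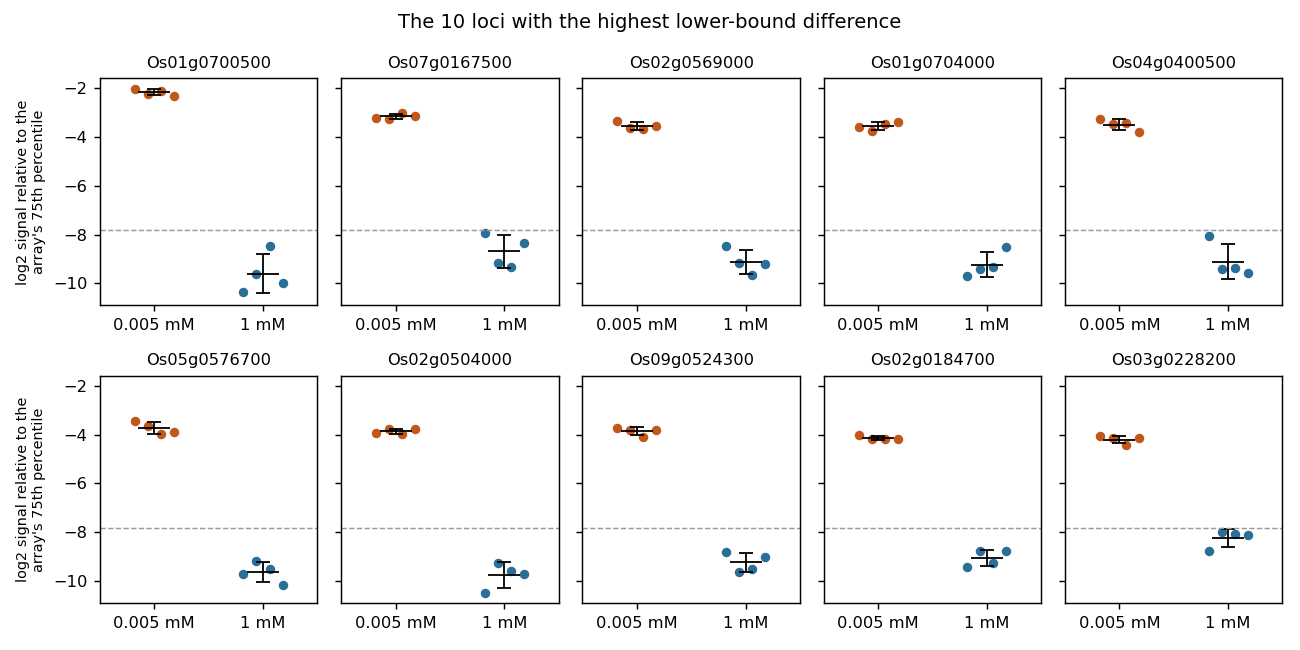
Log2 signal relative to the array's 75th percentile on each array (points) with mean and SD (bars, n = 4) for the 10 members with the highest lower bound, at 0.005 mM (left, orange) and 1 mM (right, blue); the dashed line is the mean of the lowest signals well above background on the arrays at 1 mM. In each panel the orange points lie close together, well over the line, and the blue points lie under or near it.

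At the other end, Os02g0247600 had the lowest bound. Its level was -7.19, -7.26, -7.00 and -7.34 on the arrays at 0.005 mM, against -10.34, -9.61, -9.50 and -10.13 on the arrays at 1 mM. The measured difference was 2.70, but the bound was only 1.55-fold because the 0.005 mM signals lay little above the detection limit. The members nearest inside the limit of 2 were Os11g0285000 with a difference of 2.004, Os04g0593500 with 2.01 and Os02g0694600 with 2.03. The loci nearest outside it were Os05g0327000 and Os04g0200700, both with 1.99, and Os12g0465600 with 1.98. A further 35 loci had the same detection pattern as the members and missed only the limit on the difference.

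The detection pattern was graded around the members. Loci that met every other condition but had the probe well above background on 1, 2 or 3 of the 4 arrays at 1 mM numbered 39, 25 and 13. Those with no detection at 1 mM but detection on only 1, 2 or 3 of the 4 arrays at 0.005 mM numbered 5, 15 and 13. Another 336 loci had a probe detected on all 8 arrays and at least 2 higher at 0.005 mM, and 1.71% of all tested probes were at least that much higher. The same rule turned round gave 206 loci detected only at 1 mM, or 0.696% of all, and no locus was in both sets. The members detected only at 0.005 mM had a median lower bound of 1.73, a highest bound of 5.66 and 6 loci with a bound of at least 4. In the opposite direction, the loci detected only at 1 mM had a median lower bound of 2.04, a highest of 8.99 and 31 loci with a bound of at least 4. The difference between these sets was not tested.

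The SD of the log2 level over the 4 replicates at 0.005 mM was under 0.25 for 75 members. Its median was 0.19 over members, above the median of 0.11 over all 13442 usable probes detected in the same range of level. That range runs from the dimmest to the brightest member, and most members lie near its lower end. The members and these probes are thus not matched for level. Os03g0279500 had the lowest SD, with -6.61, -6.61, -6.59 and -6.64 at 0.005 mM, against -9.03, -7.64, -8.57 and -9.86 at 1 mM. The highest value of a member fell in replicate 1 for 28 loci, in replicate 2 for 19, in replicate 3 for 21 and in replicate 4 for 33. The highest values of the members were thus spread over all 4 replicates.

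At 2 loci a single array at 0.005 mM was far brighter than the others. Os06g0192000 had 32.6, 53.5, 229.8 and 31.0 units at 0.005 mM, against 11.6, 9.60, 5.98 and 8.77 at 1 mM. Os02g0216500 had 38.1, 253, 30.9 and 30.9 units at 0.005 mM, against 14.1, 8.54, 9.09 and 12.4 at 1 mM. Without that array the measured differences were 1.82 for Os06g0192000 and 1.36 for Os02g0216500, under the limit of 2, and the SDs of 1.39 and 1.44 were the highest of all members. Os11g0104200, Os04g0219600 and Os05g0162800 followed with SDs of 0.64, 0.56 and 0.52 (n = 4). Apart from these 5, no member had an SD over 0.5 at 0.005 mM. Leaving out 1 array at 0.005 mM brought 5 members under the limit of 2, namely Os06g0192000, Os02g0216500 and the 3 loci nearest inside it.

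For most members the call rests on 1 probe. Of the 101, 79 had 1 usable probe and 22 had several. Both usable probes passed at Os03g0722000, at -5.39 ± 0.18 and -5.62 ± 0.18 at 0.005 mM against -8.79 ± 0.26 and -9.30 ± 0.29 at 1 mM. Both also passed at Os05g0162800, whose probes are drawn from the same transcript sequence. At the other 20 loci at least 1 probe failed the rule. Another probe was well above background on all 4 arrays at 1 mM at 7 of these loci, on 1 to 3 arrays at 6 and on none at 7. The levels of different probes cannot be set against each other, so only their differences between concentrations are read here.

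At Os05g0551700 the passing probe measured -5.60 ± 0.16 at 0.005 mM and -9.81 ± 0.31 at 1 mM. The other probe, for transcript Os05t0551700-01, was detected on all 8 arrays and measured -0.43 ± 0.18 at 0.005 mM and -5.65 ± 0.65 at 1 mM (SD, n = 4 each). Its difference of 5.22 exceeded the 4.21 of the passing probe, so the locus was 5.22 higher at 0.005 mM by a probe that measured it at both concentrations. Os09g0419200 was different. Its passing probe, for transcript Os09t0419200-02, measured -5.98 ± 0.31 at 0.005 mM and -9.60 ± 0.45 at 1 mM, a difference of 3.62. The other 3 probes of the locus were detected on all 8 arrays, at 1.93 to 2.42 at 0.005 mM and 0.19 to 0.76 at 1 mM, with differences between 1.66 and 1.74.

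The other probes of Os10g0469100, Os03g0170900 and Os01g0103100 had smaller differences than the passing ones as well. At Os10g0469100 the other probe differed by 1.56 and the passing one by 2.68. At Os03g0170900 the 3 other probes differed by 1.4, 1.56 and 1.44, and the passing ones, which lie in the coding sequence alone according to the probe names, by 2.80 and 2.17. At Os01g0103100 the other probe differed by 1.53 and the passing one by 2.09. At Os08g0396700, 2 of the 4 other probes were detected on all 8 arrays, and they differed by 1.37 and 2.298, below and just above the 2.25 of the passing probe. The remaining probes, detected on all arrays at 0.005 mM and on 2 and 3 arrays at 1 mM, differed by 1.985 and 0.54. Os02g0216500, 1 of the loci with a single bright array, had 2 other probes with differences of 1.22 and 0.66. At these loci the identifier was detected at both concentrations by another probe, and each probe measured it higher at 0.005 mM.

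**Figure D4:**
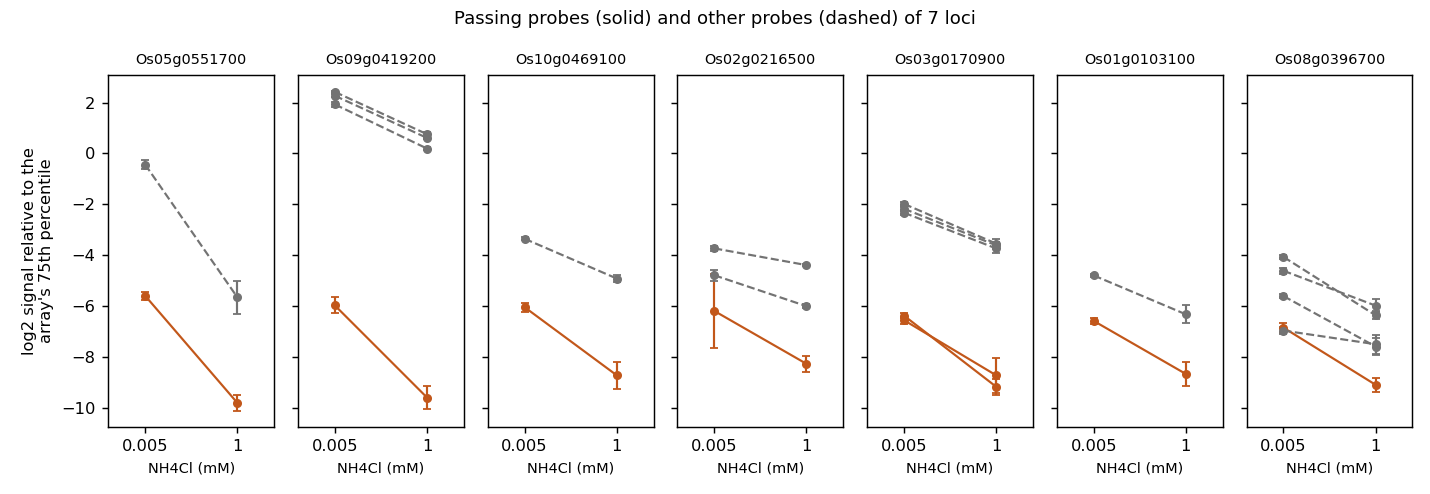
Scaled log2 signal (vertical axis) at 0.005 mM and 1 mM ammonium chloride (mean ± SD, n = 4 each) of the passing probes (solid, orange) and other usable probes (dashed, grey) of the 7 members that have another probe well above background on all 4 arrays at 1 mM. Every line falls towards 1 mM, and the dashed line of Os05g0551700 falls further than the solid one.

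At some loci a second probe gave no such signal. Os05g0576700, among the 6 highest bounds, rests on the probe for transcript Os05t0576700-02, which measured -3.73 ± 0.25 at 0.005 mM and -9.64 ± 0.41 at 1 mM. The probe for Os05t0576700-01 was well above background on no array, at -9.64 ± 0.23 at 0.005 mM and -9.36 ± 0.92 at 1 mM. The second probes of Os05g0551500 and Os09g0467300 were likewise detected on no array, with differences of 0.06 and 0.43. At Os05g0576700, Os05g0551500 and Os09g0467300 the probes carry different transcript names, so the identifier alone does not say which transcript was measured. At Os03g0215400, 2 probes passed with differences of 3.39 and 3.32. Another was well above background on no array but differed by 1.97, at -7.72 ± 0.06 at 0.005 mM and -9.69 ± 0.49 at 1 mM. It shares its transcript name, Os03t0215400-02, with 1 of the passing probes. Other probes that failed the rule differed by 2.02 at Os01g0723000, by 2.58 at Os09g0441700, and by 1.93 and -0.14 at Os03g0375300.

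Members lay on all 12 chromosomes. Chromosome 4 held 15 of them, 0.570% of its usable loci, and chromosome 1 held 14, or 0.337%. Chromosome 8 had the fewest, 3, or 0.149%. By the order of locus identifiers on the array, 3 pairs of members were direct neighbours. Os02g0590100 and Os02g0590200 were 1 of them, but the probes of both come from the same transcript sequence, so the pair is 1 measurement and not 2. It measured -5.39 ± 0.35 and -5.45 ± 0.40 at 0.005 mM against -9.54 ± 0.34 and -9.24 ± 0.15 at 1 mM. The probe named for Os02g0590100 carries the transcript name Os02t0590200-01, that of the other locus. Both loci are still counted among the members.

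The other neighbouring pairs were both on chromosome 4. Os04g0532500 measured -4.44 ± 0.19 at 0.005 mM and -9.07 ± 0.65 at 1 mM, and Os04g0532700 beside it measured -6.61 ± 0.12 at 0.005 mM and -9.61 ± 0.28 at 1 mM. Os04g0531600, also a member, preceded them with 6 array loci between, and those loci differed by between -0.14 and 1.32. Os04g0633700 measured -6.22 ± 0.21 at 0.005 mM and -8.90 ± 0.47 at 1 mM, and Os04g0633800 measured -6.39 ± 0.31 at 0.005 mM and -8.62 ± 0.59 at 1 mM. Near them lay the member Os04g0632500, whose passing probe differed by 2.86. Its second probe, for the same transcript, differed by -0.05, at -7.11 ± 0.45 at 0.005 mM and -7.06 ± 1.96 at 1 mM. That second probe was well above background on 3 arrays at 0.005 mM and on 2 at 1 mM. The loci Os04g0632600, Os04g0632700 and Os04g0633900 also lay there. They were detected at both concentrations and were 2.39, 2.3 and 2.05 higher at 0.005 mM. Within this stretch, Os04g0633200 was well above background on no array, and Os04g0633300 only on 1 array at 0.005 mM. They differed by 0.04 and 1.03, mostly between background readings. These stretches were chosen after their values were seen.

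**Figure D5:**
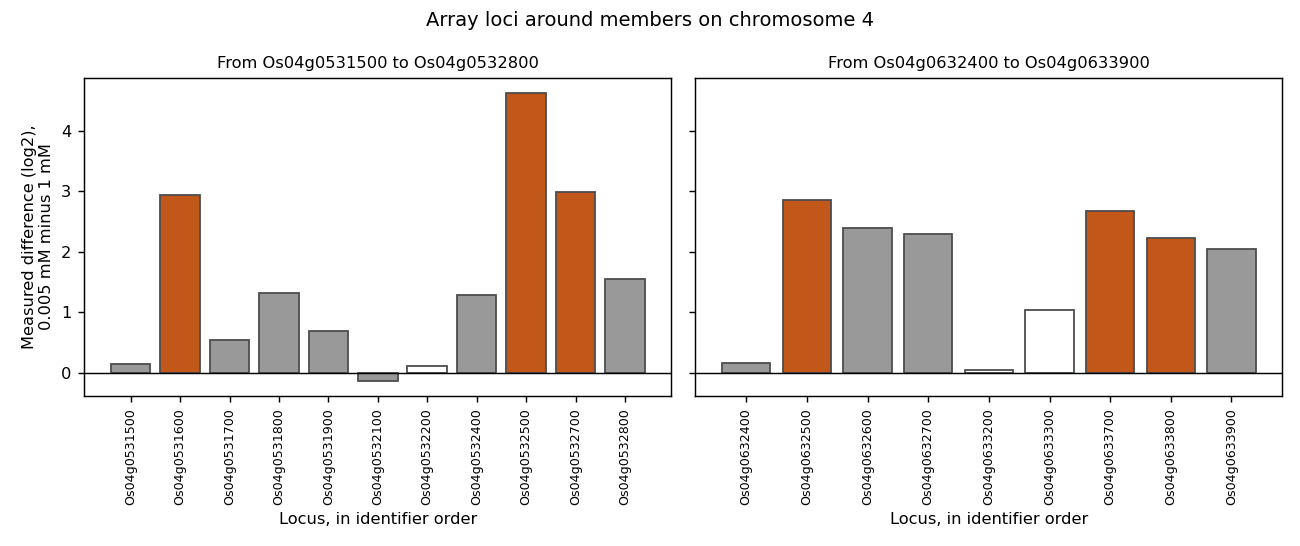
Measured log2 difference, 0.005 mM minus 1 mM (vertical axis), of consecutive array loci around the members on chromosome 4, in identifier order (horizontal axis); orange bars are members, grey bars are other loci tested with limma and open bars are loci detected on too few arrays to be tested. In the right panel 3 grey bars reach 2 beside the 3 orange ones, while in the left panel the grey bars between members stay at or under 1.32. Members are shown by a passing probe, and a second probe of Os04g0632500 differed by -0.05.

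The loci next to members were also compared with the rest of the array. Of 155 tested loci that flank a member and are not members, 88 (56.8%) were higher and 35 (22.6%) were lower at 0.005 mM at a limma adjusted p of 0.05, against 44.1% and 32.4% of all 24733 tested loci. Their median difference was 0.31, against 0.09 over all loci. Of the flanking loci, 16 (10.3%) were at least 2 higher at 0.005 mM, against 1.92% of all loci. They flanked 14 members, of which Os02g0247600 and Os03g0153900 had such a locus on both sides. Whether these shares differ beyond chance was not tested.

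The largest difference among the flanking loci belonged to Os01g0704100, next to Os01g0704000. It measured 5.84 ± 0.11 at 0.005 mM and 0.59 ± 0.06 at 1 mM (SD, n = 4 each), 5.25 higher at 0.005 mM with an SE of 0.06. From general knowledge this locus is NRT2.3, a high-affinity nitrate transporter gene of rice, and the RefSeq gene table (assembly ASM3414082v1) places a gene of that name on the chromosome the identifier gives. Os01g0704000, its neighbour, differed by 5.68 as measured. Os03g0153500 and Os03g0154000, on the sides of Os03g0153900, were 3.46 and 2.41 higher at 0.005 mM. Os02g0247500 and Os02g0247800, on the sides of Os02g0247600, were 2.50 and 2.55 higher.

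The array design sorts its probes into classes, which the files name without defining them. Of the 106 passing probes, 68 (64.2%) belonged to the class that the design names mRNA, against 77.2% of all usable probes and 71.9% of the usable probes in the same range of signal. A further 28 (26.4%) belonged to the class named COMBINER_EST, against 16.6% of all usable probes and 19.0% of the dim ones. The remaining 10 (9.43%) belonged to the class named COMBINER, against 6.24% and 9.14%. The mRNA class was thus a smaller share of the passing probes than of either set, and the difference was not tested. The range of signal runs from the dimmest to the brightest member, and most members lie near its lower end. The dim probes are thus not matched to the members in level.

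The 29 loci listed for nitrogen nutrition held 0 members, against 0.341% of all loci, a share that lets nothing be read from a list of this size. These lists were written from general knowledge with earlier results of these data known, and a symbol is given only where the RefSeq table places it on the locus's chromosome. Of 7 loci for nitrate uptake and reduction, 6 were higher and 1 was lower at 0.005 mM at a limma adjusted p of 0.05, with a median difference of 3.31; over all tested loci 44.1% were higher and 32.4% lower, with a median of 0.09, and the list counts that follow stand beside the same shares. NRT2.1, a high-affinity nitrate transporter gene, measured 2.62 ± 0.45 at 0.005 mM and -5.35 ± 0.36 at 1 mM and was detected on every array, so its difference of 7.97 exceeded that of any member without meeting the rule. The lower locus of this list, Os10g0554200, differed by -2.49. Of 9 ammonium transporter loci, 6 were higher and 3 lower (2 lower with spike-in scaling). AMT3;3 was 3.66 higher, at -0.18 ± 0.02 at 0.005 mM and -3.84 ± 0.15 at 1 mM. The largest difference in this list was that of AMT2;3, -3.90, at -6.16 ± 0.45 at 0.005 mM and -2.25 ± 0.33 at 1 mM. Of 9 loci for ammonium assimilation, 2 were higher and 6 lower, or 3 higher and 4 lower without scaling and with spike-in scaling. The largest differences among them were those of GDH2, -3.31, and Os03g0223400, -2.16. DUR3, a urea transporter gene, was 2.07 higher. Of 3 loci for strigolactone synthesis only D17 was tested, and it was 1.21 higher.

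Markers of the organ were checked beside these values. The silicon transporter genes Lsi1 and Lsi2, which are expressed in roots, measured 6.05 ± 0.06 and 2.41 ± 0.05 at 0.005 mM, against 5.28 ± 0.15 and 1.42 ± 0.14 at 1 mM, and the other root locus, Os02g0662000, measured 5.43 ± 0.11 at 0.005 mM and 6.36 ± 0.09 at 1 mM. All 4 loci for photosynthetic proteins of green tissue were detected in every sample and lower at 0.005 mM, as were 32.4% of all tested loci, with levels of 2.60 to 4.85 at 0.005 mM and 4.37 to 6.56 at 1 mM (3 of the 4 passed the test with spike-in scaling, with quantile normalization and with normexp followed by quantile normalization). The seed storage protein gene GluA1 was well above background on no array at 0.005 mM and on all 4 at 1 mM, with levels of -8.75 ± 0.22 at 0.005 mM and -6.21 ± 0.42 at 1 mM. The part of green or seed tissue in the members' values was not tested.

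In the authors' deposited table, whose log2 ratio runs the other way, as the nitrogen-sufficient average over the deficient one, 99 of the 101 members are listed and all 99 are lower in the sufficient roots. The table comes from the same 8 arrays and lists only features with a q-value under 0.05, so the choice of the members fixes this direction and it is no independent evidence. The ratio in the authors' deposited table was -7.40 for Os01g0700500, -5.56 for Os07g0167500 and -5.76 for Os01g0704000. The members that it does not list are Os06g0192000 and Os02g0216500, those with 1 bright array at 0.005 mM.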

How the data were processed

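Root RNA of 8 samples, 4 at 0.005 mM and 4 at 1 mM ammonium, was measured on 1 array each, and the labels call the samples of a group biological replicates. Per the file headers, the deposited spot intensity was written by Agilent Feature Extraction 10.10.1.1, already background-corrected and not scaled between arrays. Its flags of 0 and 1 were used as deposited. The authors' deposited table gives a log2 ratio, a p-value and a q-value per feature, and how they were computed is not given in the sources used here. Its 8 per-array columns were not used.

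Control spots were left out, spots of 1 probe were averaged, and log2 of the processed signal minus the array's 75th percentile over non-control spots was taken. A probe with an outlier flag on any array was not usable for the rule. The passing probe brightest at 0.005 mM stood for its locus. The background over all probes came from lmFit and eBayes of limma 3.58.1, run under R 4.3.3 (two-sided, Benjamini-Hochberg over 35839 probes well above background on at least 4 of 8 arrays). For listed and flanking loci the probe with the highest mean stood for the locus. limma and the rule were tested on simulated data. The number of arrays limits the precision.

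Named loci are the 10 with the highest lower bound, the 10 brightest, those nearest the limit of 2, neighbouring members and members with another detected probe; other loci named were chosen after their values were seen. The members and lists were chosen with earlier results of these data known. Alternatives were no scaling, spike-in scaling on 4 bright control probes, quantile normalization, normexp with an offset of 50 followed by quantile normalization (on the spot's median signal, as the files give no mean), other limits, other probe filters, a replicate block, and leaving out each array. Same-numbered replicates had correlations of 0.304, -0.012, 0.109 and 0.055, against at most 0.106 between differently numbered ones. Replicate 1 exceeded that value, replicate 3 barely did, and replicates 2 and 4 did not. As they did not deviate together in every pair, they were not treated as pairs.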

Additional observations from a re-analysis of the deposited data

Results flagged for a closer look

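In 5 of 50 groups of 4 arrays checked over the named loci, 1 array lay far from the other 3 by Dixon's test. Chance alone marks about 1 group in 20. At 0.005 mM, Os02g0216500 was at -4.04 in replicate 2, with the others between -7.00 and -6.78. Os02g0590200 was at -4.85 in replicate 4, with the others between -5.70 and -5.62. Os02g0184700 was at -3.99 in replicate 1, with the others between -4.19 and -4.17. At 1 mM, Os03g0228200 was at -8.78 in replicate 1, with the others between -8.11 and -8.00, and Os04g0400500 was at -8.04 in replicate 1, with the others between -9.59 and -9.38. None of the 1 mM spots of these loci was called well above background. Over all 101 members, 7 had 1 such array at 0.005 mM.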

How the results depend on the processing

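The rule found 101 loci. It found 111 without scaling, 114 with spike-in scaling, 105 with quantile normalization, and all 101 were members under each of these. The detection calls do not change with scaling, and leaving out scaling or using the spike-in controls raised every difference by a constant. No member could be lost under either of those, so keeping all 101 there is no evidence of stability. Normexp with an offset of 50, run together with quantile normalization on the median spot signal, gave 8. Quantile normalization alone did not lower the count, and the part of the offset, the correction and the other signal was not tested. A minimum difference of 3 left 52, the positive-and-significant call in place of well above background gave 20, of which 13 are among the 101, and a lower bound of at least 2 left 36; a minimum difference of 1 gave 135, and asking every usable probe of a locus to pass gave 81. With 1 array left out the count ran from 99 to 134, the highest without the first array at 1 mM, and 90 loci were members whichever array was left out. The median lower bound of 1.73 became 2.002 without scaling and 2.11 with spike-in scaling, and ran from 1.61 to 1.87 with 1 array left out. Of 275 recomputed bounds of the named loci, 60 moved by more than the replicates' SD and 0 changed sign.

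Probes lower at 0.005 mM numbered 12111, against 7340 without scaling, 5883 with spike-in scaling and 8033 with 1 probe per locus; with 1 array left out they ran from 11553 to 12022, and higher probes from 14792 to 15481. A replicate block gave 15538 higher and 12178 lower probes. Flanking loci at least 2 higher numbered 10 under normexp with quantile normalization, against 16. With 1 array left out these ran from 16 to 17, flanking loci called higher from 83 to 87, and listed loci called lower from 9 to 10, with 16 called higher each time. Members near the detection limit have bounds set by that limit, so their true difference at 1 mM cannot be measured with these probes. The effect of the slide is inseparable from that of ammonium throughout.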
